A study of Mus musculus with 15 samples.

Results

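The protocadherin genes are described here across chemically induced neurons, primary neurons and astrocytes of the mouse brain. Members were all rows of the expression table with a symbol of Pcdh followed only by lower-case letters and digits, which gave 70 genes of 24346. Of these, 14 belong to the alpha cluster, 22 to the beta cluster, 22 to the gamma cluster and 12 are non-clustered. Total RNA from C57BL/6 mice was sequenced in 15 libraries, 3 in each of 5 groups. The groups were induced cells at day 4 (D4), day 8 (D8) and day 16 (D16) of chemical induction in vitro, primary neurons (PN) and astrocytes (D0), the cells from which induction started. The labels give no genotype, transgene or age, do not name the compounds, and do not say whether the libraries of a group came from separate cultures, and the p-values below therefore cover no more than the spread between libraries, which may be technical.

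Protocadherins are cell-surface proteins with extracellular cadherin repeats. The clustered genes lie side by side on a single chromosome and each of their variable exons has its own promoter. In the alpha and gamma clusters a variable exon is spliced to constant exons that all members of the cluster share, whereas beta genes consist of a variable exon alone. Individual neurons choose a few of these promoters, largely at random, and the combination gives the cell a surface identity by which its branches recognise and avoid each other. The C-type genes at the end of the alpha and gamma clusters are regulated differently and several are used in most neurons of a type. Non-clustered protocadherins, most of them in the delta1 and delta2 subgroups, each have their own locus and act in adhesion, cell sorting and the growth of axons.

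In RefSeq on GRCm38.p6 the alpha cluster spanned chr18:36930285-37188897, the beta cluster chr18:37264998-37521419 and the gamma cluster chr18:37661775-37841873. Of the 12 non-clustered genes, 2 (Pcdh1 and Pcdh12) also lie on chromosome 18. Levels are in FPKM, a fragment count scaled to transcript length and library size, so they are per length. Between 48.6 and 54.9% of the exonic bases of an alpha gene are shared with another member, 27.8 to 66.8% of those of a gamma gene, and 0 to 9.67% of those of a beta gene. How the reads of shared exons were divided among genes is not given in the sources used here, so the level of a single alpha or gamma gene is less certain than the sum of its cluster. Values above 0 but below 0.001 FPKM made up 16.2% of all alpha values, in 11 of the 14 genes, against 0.127% in the genes outside the family.

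Testing required a level of 1 FPKM or more in 3 or more libraries, and 63 of the 70 members met that. The untested members were Pcdha8, Pcdhac1, Pcdhb1, Pcdhb5, Pcdhb21, Pcdhgb8 and Pcdh12, and their highest value in any library was 2.08 FPKM. Without the PN libraries only 46 of the 70 would have passed, 7 alpha, 8 beta, 21 gamma and 10 non-clustered genes. The other 17 tested members passed only with the PN libraries counted. All of them, Pcdh15 included, needed 1 or more PN libraries at 1 FPKM or more to be tested. Their changes in comparisons with PN are therefore given as a description with no p, and counts are also given without the 17. Changes are in log2(FPKM + 1), which understates the change of genes at low levels. A gene was called at a Benjamini-Hochberg adjusted p below 0.05, from limma over 13983 genes, together with a log2 change of 1 or more in size.

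The FPKM of a library summed to 548309 to 787080, with 11861 to 12907 genes at 1 FPKM or more. Relative depth, read from the steps of low values, ran from 1.69 to 2.04 in PN libraries and from 0.707 to 1.7 in the others, and absolute depth is unknown. Summed astrocyte markers were at 42.8 to 48.9 FPKM in D16, 145 to 255 in PN and 853 to 1900 in D0, with all 8 markers at a mean of at least 1 FPKM in D0. Summed neuronal markers were at 770 to 862 FPKM in D16, 3210 to 4420 in PN and 273 to 387 in D0. The D0 sum came mostly from Stmn2, with means of 304 FPKM in D0, 149 in D4, 213 in D16 and 1210 in PN. Snap25, by contrast, averaged 0.183 FPKM in D0, 172 in D16 and 195 in PN. Of the 8 neuronal markers, 5 were called higher and 0 lower in D16 than in D0. All 8 reached a mean of 1 FPKM in PN and 7 did in D16, where Dcx, a marker of immature neurons, averaged 0.318 FPKM. Meningeal fibroblast and mural markers summed to 5.68 to 10.4 FPKM in D16, 4.08 to 82.2 in PN and 2000 to 8070 in D0, and ependymal markers to 3.48 to 6.08, 20.9 to 24.6 and 118 to 288 in the same order. The fibroblast and mural sum in D0 came mostly from Acta2 and Tagln, with means of 1950 and 2250 FPKM. Col1a1 and Col1a2 averaged 133 and 57.2 FPKM in D0, but Col3a1, Dcn and Lum only 0.776, 0.558 and 0. Oligodendrocyte lineage markers summed to 11 to 12.2 FPKM in D16, 23.1 to 47.2 in PN and 239 to 391 in D0. That D0 sum came mostly from Olig1 and Olig2, with means of 242 and 72.4 FPKM, while Sox10, Mbp and Mog averaged 0.127, 0.311 and 0. Of the microglial markers, P2ry12, Tyrobp and Cx3cr1 were listed at 0 in every D16 library. Endothelial markers summed to at most 11.8 FPKM in any library. The part of these cell types in the results below was not tested. In bulk libraries, fewer cells that use a gene and less RNA of it per cell cannot be told apart.

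Over the clusters as wholes, alpha and beta RNA was more abundant at D8 and D16 than at D0 and more abundant again in primary neurons, while the gamma cluster followed another course. The summed alpha level was 3.4 to 9.27 FPKM at D0, 5.67 to 7.58 at D4, 10.5 to 15.4 at D8, 18.8 to 22.6 at D16, and 66.6 to 105 in PN. The summed beta level was 4.26 to 8.12, 7.5 to 12.5, 16.5 to 23.1 and 23.5 to 32.2 FPKM at D0, D4, D8 and D16, and 65.8 to 74.1 in PN. For alpha and for beta, the D16 libraries lay above all D8 libraries, and the PN libraries above all D16 libraries. The whole gamma cluster summed to 174 to 318 FPKM at D0, 119 to 172 at D4, 129 to 166 at D8, 120 to 157 at D16, and 174 to 223 in PN. The range at D16 lay below that at D0 and below that in PN. Without its C-type genes, the gamma cluster was at 46.3 to 63.5 FPKM in D16 and 36.5 to 75.3 in D0, overlapping ranges, against 106 to 135 in PN.

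**Figure D1:**
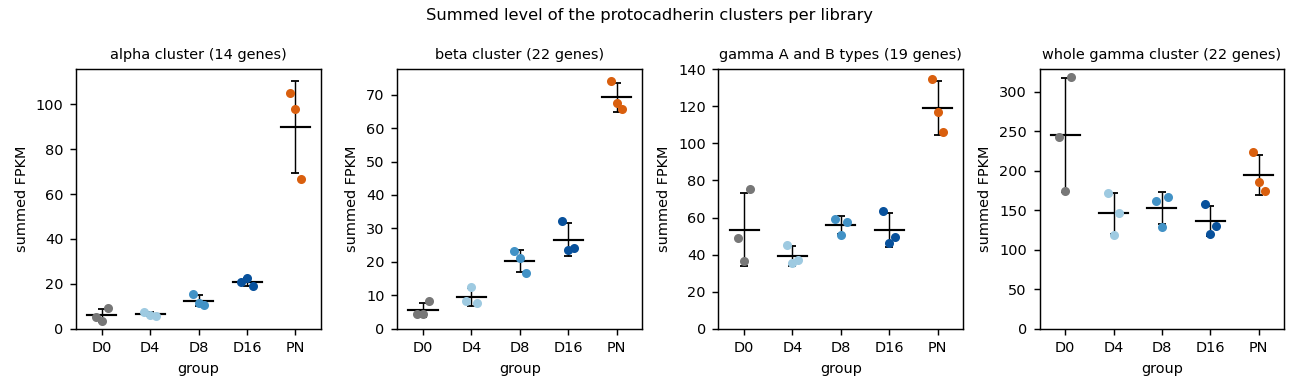
Summed FPKM (y axis) of the alpha cluster, the beta cluster, the A and B types of the gamma cluster and the whole gamma cluster in each library, by group (x axis); points are libraries, the line the mean and the bars the SD of 3. Mean alpha and beta sums are higher at each later time and highest in PN, at 66.6 to 105 and 65.8 to 74.1 FPKM, while the whole gamma cluster is at 120 to 157 FPKM at D16.

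Group means followed the order D0, D4, D8, D16 from low to high in 10 of 14 alpha genes, 15 of 22 beta genes and 3 of 22 gamma genes. The group with the highest mean was PN for all 14 alpha genes, for 20 of 22 beta genes and for 15 of 22 gamma genes. Neither count was made over all genes. The number of the 58 clustered genes at 1 FPKM or more was 19 to 23 per library at D0, 18 to 21 at D4, 27 to 34 at D8 and 34 to 38 at D16, against 51 to 53 in PN. Most of the increase came from alpha and beta genes. At D16, 6 to 9 alpha and 6 to 12 beta genes reached 1 FPKM, against 1 alpha and 0 to 2 beta genes at D0, while gamma genes numbered 18 to 20 at D16 and 17 to 20 at D0. The map of all libraries shows the same split, with most alpha and beta rows dark at D0, apart from Pcdhac2, Pcdhb17 and Pcdhb22, and most gamma rows lit in every group, Pcdhgb8 and, in induced cells, Pcdhgc4 being among the exceptions.

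**Figure D2:**
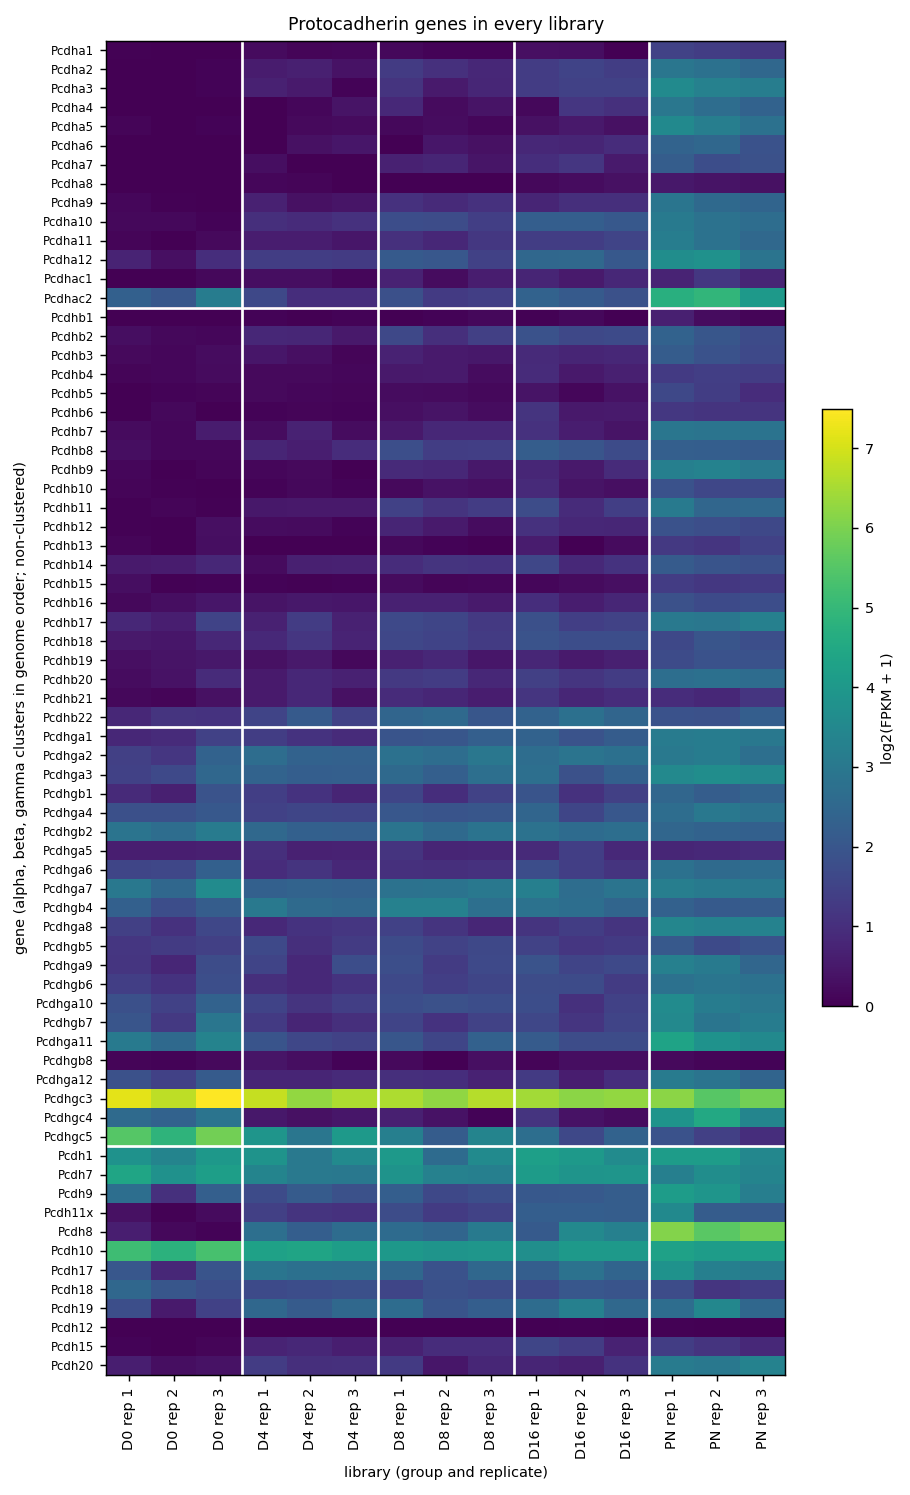
Level of every protocadherin gene (rows, clusters in genome order, then non-clustered genes) in each of the 15 libraries (columns), as log2(FPKM + 1) by colour; white lines divide families and groups. Most alpha and beta rows are dark at D0, Pcdhac2 being an exception, and most are brightest in PN, and Pcdhgc3, at 45.5 to 178 FPKM, is the brightest gamma row.

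Of the 63 tested members, 4 were called higher and 5 lower in D4 than in D0, where 13.6% of all tested genes were called higher and 14.2% lower. In D8 against D0 the counts were 12 higher and 4 lower, with 15.5% and 16.9% of all tested genes. In D16 against D0 they were 16 higher and 4 lower, with 16.6% and 18.7% of all tested genes. In PN against D0, 47 members were called higher and 2 lower, with 17.1% and 23.9% of all tested genes. In D16 against PN, 0 members were called higher and 34 lower, with 19.6% and 15% of all tested genes. Among the 46 members that pass without the PN libraries, 30 were called higher and 2 lower in PN than in D0, and 0 higher and 22 lower in D16 than in PN. The median log2 change of the tested members was 0.06 in D4, 0.34 in D8, 0.48 in D16 and 1.48 in PN, all against D0, and -1.06 in D16 against PN. Over all tested genes the medians of the same comparisons were -0.01, 0, -0.01, -0.12 and 0.06. All comparisons with D0 use the same 3 astrocyte libraries. Without D0 replicate 2, 1 member was called higher in D4, 7 lower in D8 and 7 lower in D16, and without D0 replicate 3, 3 were called lower in D4.

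Alpha protocadherins, whose variable exons encode adhesion domains expressed chiefly in neurons, were nearly silent in astrocytes apart from the C-type gene Pcdhac2. In D16 against D0, 5 of 12 tested alpha genes rose and 0 fell, with a median log2 change of 0.88. These were 41.7% and 0%, beside 16.6% and 18.7% of all tested genes. Pcdha10 had the largest change, with 3.67, 3.75 and 3.17 FPKM in D16 libraries, against 0.109, 0.115 and 0.044 FPKM in D0 libraries. Its groups did not overlap, and the log2 change was 2.05 ± 0.16 (SE, adjusted p = 3.5e-08). Pcdha12 had 4.66, 4.81 and 3.15 FPKM in D16, against 0.688, 0.229 and 0.964 in D0. It was the most abundant alpha gene at D16, and it rose by 1.69 ± 0.26 (adjusted p = 4.3e-05). Pcdha2 rose by 1.38, Pcdha3 by 1.38 and Pcdha11 by 1.33, to 1.64 to 1.68 FPKM in D16, against 0.014 to 0.068 FPKM in D0. At D8, Pcdha10, Pcdha12 and Pcdha2 had already risen over D0, by 1.5, 1.19 and 1.04, the Pcdha2 call being lost without D8 replicate 1 (0.91, adjusted p = 0.00053), with equal totals (0.99) and with quantile normalization (0.95). At D4, 0 of 12 alpha genes were called higher, although Pcdha10 averaged 1.01 ± 0.112 FPKM in D4 against 0.0895 ± 0.0395 in D0 (SD, n = 3 each), a log2 change of 0.88. These counts depend on the pseudocount, and with 0.1 in place of 1, 6 alpha genes were called higher at D4, 8 at D8 and 10 at D16, with a log2 change of 2.57 for Pcdha10 at D4 (adjusted p = 1.5e-06).

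In primary neurons all 12 tested alpha genes were called higher than in D0, with a median log2 change of 2.69, and so were all 7 that pass the filter without the PN libraries. Of all tested genes, 17.1% were called higher. Pcdha3 changed most, with 11, 8.68 and 8.06 FPKM in PN, against 0.0442 FPKM in D0 replicate 3 and less than 0.001 in the other D0 libraries. The log2 change was 3.33 ± 0.19 (adjusted p = 9.6e-10). Pcdha5 followed, with 10.7, 8.14 and 5.97 FPKM in PN, against a mean of 0.0395 ± 0.0372 in D0 (SD, n = 3). Its log2 change was 3.13 ± 0.17, in a gene that was tested only because of its PN values. Relative to the alpha total, the composition also differed between groups. Pcdha10 and Pcdha12 made up 16.6 to 17.5% and 16.7 to 22.3% of the alpha sum in D16 libraries, against 6.17 to 8.11% and 9.56 to 13.2% in PN libraries. Pcdha5 was 1.29 to 1.95% of the sum in D16 and 8.32 to 10.2% in PN. In astrocytes Pcdhac2 alone was 78.1 to 89% of the alpha sum. An alpha row with a compound symbol, Pcdha7-g, is outside the 70 and averaged 0.974 FPKM in D16, 3.08 in PN and 0.0334 in D0.

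Beta protocadherins, which have no constant exons and thus lack the shared cytoplasmic tail, moved in the same direction. In D16 against D0, 5 of 19 tested genes rose and 0 fell, with a median log2 change of 0.64 and a positive change in all 19. These were 26.3% and 0%, beside 16.6% and 18.7% of all tested genes. Over all tested genes, 6940 of 13983 changes were positive. Pcdhb8 had 3.59, 2.93 and 2.24 FPKM in D16, against 0.21, 0.0867 and 0.103 in D0. The groups were fully separate and the log2 change was 1.78 ± 0.17 (adjusted p = 4.2e-07). Pcdhb22, at the end of the cluster, had 4.06, 5.84 and 4.4 FPKM in D16, against 0.779, 1.18 and 1.14 in D0, a rise of 1.5 ± 0.22 (adjusted p = 2.3e-05). It was the most abundant beta gene at D16, with 12.6 to 24.8% of the beta sum. Pcdhb2, Pcdhb11 and Pcdhb18 rose by 1.54, 1.28 and 1.22. At D8, Pcdhb8, Pcdhb22, Pcdhb11 and Pcdhb2 had risen by 1.33, 1.32, 1.23 and 1.16 over D0, and at D4 0 of 19 beta genes were called. With a pseudocount of 0.1, 4 beta genes were called higher at D4 and 14 at each of D8 and D16.

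In PN against D0, 18 of 19 tested beta genes were called higher, with a median log2 change of 1.66, and 7 of the 8 that pass the filter without the PN libraries. Of all tested genes, 17.1% were called higher. Pcdhb9 had 8.39, 8.96 and 7.16 FPKM in PN, against 0.0939 and 0.0763 FPKM in D0 replicates 1 and 3 and a listed 0 in D0 replicate 2. The log2 change was 3.11 ± 0.16, in a gene that was tested only because of its PN values. Pcdhb11 and Pcdhb20 rose by 2.62 and 2.2. Pcdhb22 was the tested beta gene not called in PN, with 2.73, 2.63 and 3.72 FPKM there and a log2 change of 0.98 ± 0.22 over D0. It fell short of the minimum change only. With a pseudocount of 0.1, equal totals or quantile normalization Pcdhb22 was called higher in PN. The same call came without D0 replicate 2, D0 replicate 3, PN replicate 1 or PN replicate 2. Among the untested beta genes, Pcdhb5 had 2.08, 1.59 and 0.923 FPKM in PN and 0 to 0.0651 in D0, and Pcdhb21 had 1.24, 0.743 and 0.95 FPKM in D16, 0.932, 0.785 and 1.23 in PN and at most 0.261 in D0.

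The gamma cluster is needed in mice for the survival of many spinal and cortical interneurons, and its A and B types were already present in astrocytes. In D16 against D0, 2 of the 18 tested A and B genes rose and 1 fell, with a median log2 change of 0.06. These were 11.1% and 5.56%, below the 16.6% and 18.7% of all tested genes. Pcdhga2 had 5.38, 6.29 and 5.74 FPKM in D16, against 1.69, 1.26 and 4.13 in D0, a log2 change of 1.11 ± 0.24 (adjusted p = 0.001). Pcdhga1 rose by 1.08 ± 0.19 (adjusted p = 0.00018). The Pcdhga2 call was lost without D0 replicate 2 (0.87, adjusted p = 0.0066) or D0 replicate 1 (adjusted p = 0.0061, just under the minimum change), and the Pcdhga1 call without D16 replicate 1 (0.98, adjusted p = 0.0014) or D0 replicate 1 (0.96, adjusted p = 0.0014) and with quantile normalization (0.93). Pcdhga11 fell, with 3.46, 2.31 and 2.32 FPKM in D16 against 7.48, 4.83 and 9.18 in D0. Its log2 change was -1.12 ± 0.26 (adjusted p = 0.0015), or -0.94 (adjusted p = 0.01) without D0 replicate 3, which ends the call. At D8, Pcdhga2 and Pcdhgb4 were called higher and Pcdhga11 lower, all 3 calls lost when 1 library was left out. Pcdhga2 changed by 0.92 without D0 replicate 2. Pcdhgb4 changed by 0.84 without D0 replicate 2, 0.91 without D8 replicate 1, 0.92 without D8 replicate 2 and 0.91 with equal totals. Pcdhga11 changed by -0.99, -0.85 and -0.84 without D0 replicate 1, D0 replicate 3 and D8 replicate 2. At D4, Pcdhga11 fell by 1.32 on the log2 scale and Pcdhgb7 by 1.02, and Pcdhgb7 had overlapping groups and changes of -0.57 without D0 replicate 3 and -0.9 without D4 replicate 2, and an adjusted p of 0.056 by limma in a fit of the 2 groups alone.

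In PN against D0, 9 of the 18 A and B genes rose and 0 fell, with a median log2 change of 1.07. These were 50% and 0%, beside 17.1% and 23.9% of all tested genes. Pcdhga8 had 9.85, 9.02 and 9 FPKM in PN, against 1.67, 1.1 and 2.03 in D0, and rose by 2 ± 0.19 (adjusted p = 1.9e-07). Pcdhga1 rose by 2 as well, and Pcdhga9 and Pcdhga3 by 1.7 and 1.69. Pcdhgb7 rose by 1.15 with overlapping groups, a call lost without D0 replicate 2 (0.75, adjusted p = 0.035) or PN replicate 1 (0.98, adjusted p = 0.03) and in a fit of the 2 groups alone (adjusted p = 0.05), and Pcdhgb1 rose by 1.2, lost without D0 replicate 2 (0.96, adjusted p = 0.018). Pcdhga7 stayed uncalled in every comparison, with means of 6.74 ± 1.55 FPKM in D16, 7.48 ± 0.624 in PN and 7.54 ± 3.26 in D0 (SD, n = 3 each). At D4 it had 3.88, 4.21 and 4.03 FPKM, below every D0 library, with an adjusted p below 0.05 by limma but short of the minimum change. Pcdhgb8, which RefSeq lists as a transcribed pseudogene, did not exceed 0.344 FPKM in any library.

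The C-type genes took different courses. Pcdhgc3, which is widely expressed, had the highest mean of all protocadherins in every group, with 86.5, 71.4 and 75.8 FPKM in D16, 71.9, 45.5 and 58.1 in PN and 145, 105 and 178 in D0. It fell in PN, by 1.27 ± 0.21 on the log2 scale (adjusted p = 7.8e-05), and was not called in D16, where its log2 change was -0.84 ± 0.21 (adjusted p = 0.0029). Its share of the gamma sum was 55.2 to 59.4% in D16 and 55.9 to 60.5% in D0, overlapping ranges, against 24.4 to 33.3% in PN. Pcdhgc5 had 44.6, 28.1 and 58.6 FPKM at D0, 13.9, 6.67 and 15.5 at D4, 8.43, 3.51 and 9.4 at D8, 5.52, 2.1 and 4.15 at D16, and 2.68, 1.66 and 0.971 in PN. Every induced and PN library lay below every D0 library. It fell by 1.8 ± 0.39 at D4, by 2.49 ± 0.39 at D8, by 3.19 ± 0.39 at D16 and by 4 ± 0.39 in PN on the log2 scale (adjusted p = 0.0013, 6.3e-05, 4.9e-06 and 2.8e-07). The summed astrocyte markers were also highest at D0, but they were at 145 to 255 FPKM in PN and 42.8 to 48.9 in D16. The ependymal and oligodendrocyte lineage sums were highest at D0 too, as was the fibroblast and mural sum, mostly from Acta2 and Tagln. The relation of these sums to Pcdhgc5 was not tested.

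Pcdhgc4, which in mice is the gamma isoform that neurons need to survive, was low in induced cells and high in primary neurons. It had 0.385, 0.264 and 0.357 FPKM at D4, 0.575, 0.286 and 0.0497 at D8 and 1.2, 0.295 and 0.178 at D16, against 5.02, 4.15 and 6.39 at D0. In PN it had 13.6, 21.8 and 9.6 FPKM, above every D0 library. The log2 change against D0 was -2.2 ± 0.28 in D4, -2.25 ± 0.28 in D8 and -2.03 ± 0.28 in D16 (adjusted p = 1.1e-05, 6.4e-06 and 1.5e-05), and 1.31 ± 0.28 in PN (adjusted p = 7e-04). Pcdhac2, the C-type alpha gene used in serotonergic neurons of the mouse, had 4.07, 3.37 and 2.61 FPKM in D16, 25.2, 29.5 and 15.5 in PN and 3.86, 3.03 and 7.87 in D0. It rose in PN by 2.08 ± 0.3 (adjusted p = 1.8e-05), and its D16 and D0 values overlapped (-0.37 ± 0.3, adjusted p = 0.29). At D4 it fell by 1.28, a call lost without D0 replicate 3 (-0.95, adjusted p = 0.013). Pcdhac1 had 0.702, 0.458 and 0.799 FPKM in D16, 0.673, 1.34 and 0.712 in PN and at most 0.129 in D0, and was not tested. The plot of the C-type genes sets these courses side by side.

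**Figure D3:**
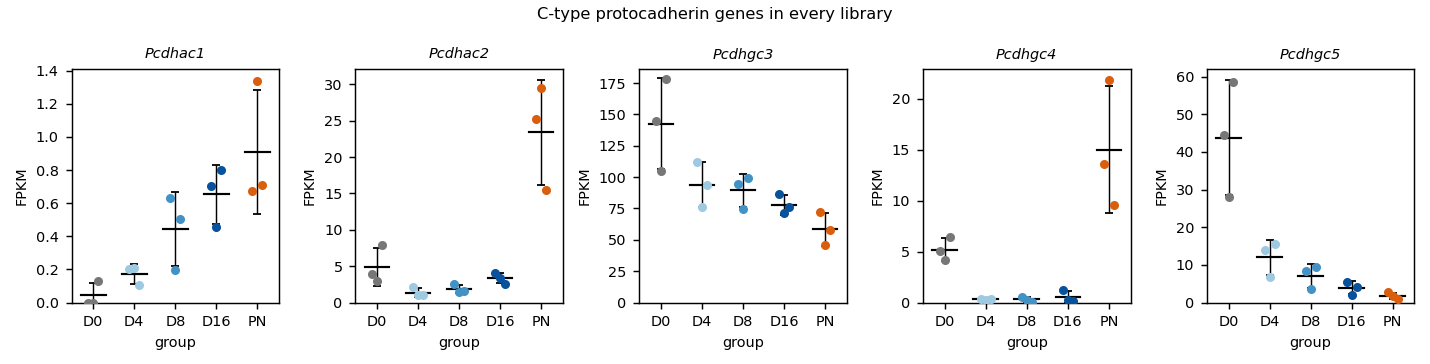
FPKM (y axis, a scale for each gene) of the 5 C-type genes of the alpha and gamma clusters in every library, by group (x axis); points are libraries, the line the mean and the bars the SD of 3. Pcdhgc5 is highest at D0 and lowest in PN, at 0.971 to 2.68 FPKM, and Pcdhgc4 is lowest in induced cells and highest in PN, at 9.6 to 21.8 FPKM.

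The non-clustered protocadherins included the gene with the largest rise in the family, Pcdh8. In D4 against D0, 4 of 11 tested genes rose and 0 fell (36.4 and 0%, beside 13.6 and 14.2% of all tested genes). In D16 against D0, 4 rose and 1 fell (36.4 and 9.09%, beside 16.6 and 18.7%). In PN against D0, 7 rose and 0 fell (63.6 and 0%, beside 17.1 and 23.9%). Among the 10 that pass the filter without the PN libraries, 4 rose and 0 fell in D4. In D16, 3 of these 10 rose and 1 fell, and in PN 6 rose and 0 fell. Pcdh8 and Pcdh10, both of the delta2 subgroup, moved in opposite directions on induction, and their promoter windows are given for that reason. Each window runs 5′ to 3′ on the gene's strand from 250 bases before to 50 after the RefSeq start on GRCm38.p6. The Pcdh8 window is chr14:79771263-79771562 on the minus strand, with capitals for the one match to TATAAA, which starts at base 221, and the Pcdh10 window is chr3:45378148-45378447 on the plus strand.
Pcdh8: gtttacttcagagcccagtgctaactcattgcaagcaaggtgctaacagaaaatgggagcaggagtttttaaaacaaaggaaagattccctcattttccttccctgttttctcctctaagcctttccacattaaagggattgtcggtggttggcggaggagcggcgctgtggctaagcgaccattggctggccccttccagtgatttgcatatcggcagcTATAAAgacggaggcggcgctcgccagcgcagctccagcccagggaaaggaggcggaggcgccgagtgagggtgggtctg
Pcdh10: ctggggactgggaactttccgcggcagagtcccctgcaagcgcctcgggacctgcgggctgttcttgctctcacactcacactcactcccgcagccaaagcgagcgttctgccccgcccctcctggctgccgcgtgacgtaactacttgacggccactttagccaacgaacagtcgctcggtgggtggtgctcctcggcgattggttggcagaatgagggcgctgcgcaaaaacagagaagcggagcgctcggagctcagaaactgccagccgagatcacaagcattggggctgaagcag
TATAAA was searched on both strands and occurs in 13.6% of 32851 RefSeq promoter windows of that length. CAGCTG (16.3% of windows) and TGACGTCA (1.79%), searched likewise, had no match in either window. The Pcdh8 window held 14 CpG dinucleotides and the Pcdh10 window 24, against a median of 7 over all windows. RefSeq windows were found for 9 members.

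Pcdh8, known as arcadlin or paraxial protocadherin, is induced by neuronal activity and acts in synaptic adhesion. It had 0.558, 0.116 and 0.0569 FPKM at D0, 5.61, 3.76 and 5.3 at D4, 5.13, 4.48 and 7.26 at D8, 3.35, 10.6 and 8.51 at D16, and 67.2, 46.6 and 57.4 in PN. Induced libraries lay above all D0 libraries and below all PN libraries at each time. The log2 change against D0 was 2.25 ± 0.3 at D4, 2.41 ± 0.3 at D8, 2.68 ± 0.3 at D16 and 5.55 ± 0.3 in PN (adjusted p = 2e-05, 7.4e-06, 2.2e-06 and 5.8e-10). Pcdh10, an autism-associated gene that acts in axon growth, had 12, 15.1 and 15.3 FPKM in D16, 18.6, 16.7 and 17.2 in PN and 34.8, 26.9 and 38.6 in D0. The D0 libraries lay above all others. It fell by 1.18 ± 0.15 in D16 (adjusted p = 5.7e-06) and by 1.15 ± 0.15 in D8, and was not called in D4 (-0.82) or PN (-0.88).

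Pcdh19, an X-linked gene whose mutations cause epilepsy, had 5.3, 8.64 and 4.78 FPKM in D16, 5.36, 10 and 4.71 in PN and 2.5, 0.443 and 1.72 in D0. It rose by 1.56 ± 0.33 in D16 (adjusted p = 7e-04) and by 1.62 ± 0.33 in PN (adjusted p = 0.00042). Its rises of 1.14 at D4 and 1.02 at D8 were lost without D0 replicate 2 (0.77 and 0.65), the lowest D0 library, and the D8 call also without D8 replicate 1 (0.83), with equal totals (0.93) and with quantile normalization (0.97). Pcdh17, which acts in presynaptic assembly and axon extension, had 6.49, 5.72 and 5.69 FPKM at D4 and 13.2, 8.44 and 7.57 in PN, against 3.05, 0.792 and 2.82 at D0. It rose by 1.2 at D4, a call lost without D0 replicate 2 (0.82, adjusted p = 0.014), and by 1.79 ± 0.29 in PN (adjusted p = 6.3e-05). Pcdh18 was at 1.24 to 4.63 FPKM throughout and was not called in D4, D8, D16 or PN against D0.

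In the delta1 subgroup, Pcdh11x, the X-linked member, had 3.67, 3.67 and 3.59 FPKM in D16, 10.8, 3.57 and 3.35 in PN and 0.262, 0.0359 and 0.153 in D0. It rose by 2.02 ± 0.29 in D16 (adjusted p = 2.2e-05) and by 2.43 ± 0.29 in PN (adjusted p = 2.4e-06), where 1 library stood above the rest. Its rise of 1.01 at D4 was lost without D0 replicate 2 (0.94) or D4 replicate 1 (0.9), with equal totals (0.99) and with quantile normalization (0.8). Pcdh9 had 3.21, 3.28 and 3.61 FPKM in D16, 16.5, 14 and 8.19 in PN and 5.58, 1.07 and 3.84 in D0, and rose in PN by 1.73 ± 0.34 (adjusted p = 0.00036). Pcdh1 and Pcdh7 were not called in any comparison with D0. Pcdh1 had 17.6, 15.6 and 11.3 FPKM in D16 and 13.1, 9.45 and 14.8 in D0, and Pcdh7, which acts in retinal axon growth in the frog, had 16.3, 13.8 and 14.1 FPKM in D16 and 19.9, 12.7 and 17.5 in D0. At D4 Pcdh7 had 9.29, 7.17 and 6.93 FPKM, below every D0 library. By limma it was lower in D4, D8 and PN at an adjusted p below 0.05, short of the minimum change. With a pseudocount of 0.1, with equal totals, or without D0 replicate 2 or D4 replicate 1, it was called lower at D4.

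Among the remaining members, Pcdh20 separated primary neurons from all other groups, with 7.69, 6.99 and 8.88 FPKM in PN, against 0.547, 0.205 and 0.278 in D0 and at most 1.5 in any induced library. It rose in PN by 2.72 ± 0.21 (adjusted p = 1.7e-08) and was not called at D4, D8 or D16. Pcdh15, a component of the tip link of hair cells, had 1.94, 1.51 and 0.632 FPKM in D16, 1.59, 1.2 and 0.83 in PN and at most 0.0705 in D0. It passed the filter through its D16 and PN libraries together, and its log2 changes against D0 were 1.14 ± 0.2 in D16 and 1.07 ± 0.2 in PN. These calls were lost without D16 replicate 1 (0.96) and without PN replicate 1 (0.95). Pcdh12, known from endothelium, did not exceed 0.0297 FPKM in any library.

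**Figure D4:**
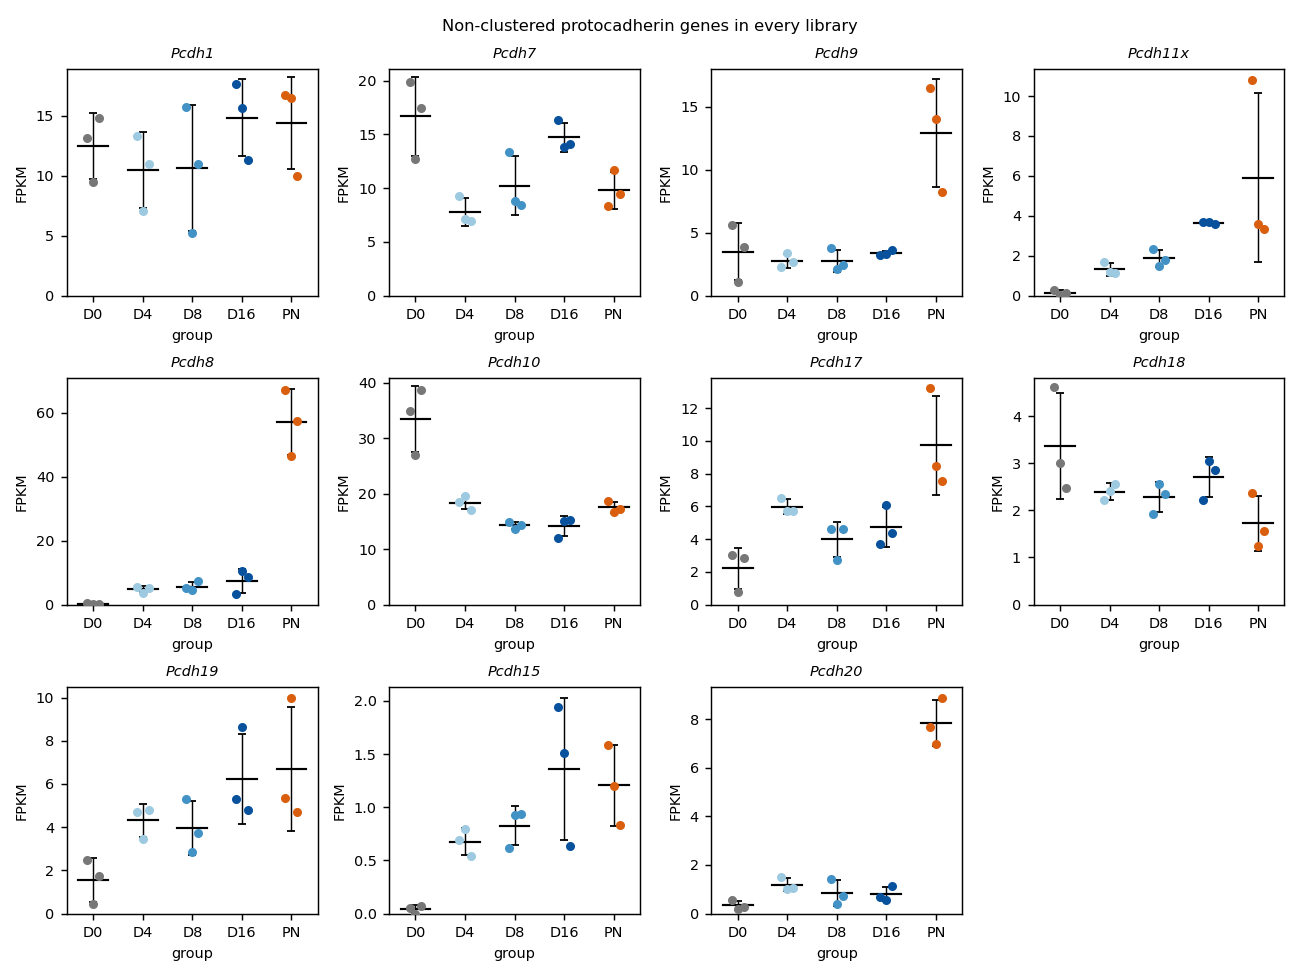
FPKM (y axis, a scale for each gene) of the 11 tested non-clustered protocadherins in every library, by group (x axis); points are libraries, the line the mean and the bars the SD of 3. Pcdh8 and Pcdh20 reach 46.6 to 67.2 and 6.99 to 8.88 FPKM in PN and stay far lower in induced cells, while Pcdh10 is highest at D0, at 26.9 to 38.6 FPKM.

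Between successive times of induction 0 members passed the call. In D8 against D4, 0 of 63 tested members were called higher and 0 lower, where 0.501% and 1.51% of all tested genes were. By limma, 19 members were higher and 1 lower at an unadjusted p below 0.05, and 5 higher and 0 lower at an adjusted p below 0.05. The lowest adjusted p was that of Pcdhga1 (0.013), with 2.82, 2.97 and 3.83 FPKM in D8, against 1.55, 1.13 and 0.896 in D4. The median log2 change was 0.3 over the tested members and 0.01 over all tested genes. The same-numbered D8 and D4 libraries varied together, and with the replicate number as a block the counts were again 0 higher and 0 lower. Without D4 replicate 1 or D8 replicate 1, 1 member, Pcdhga1, was called higher. In D16 against D8 the counts were 0 and 0, where 0.0215% of all tested genes were called higher and 0.00715% lower. At an unadjusted p below 0.05, 9 members were higher and 1 lower, and at an adjusted p below 0.05 0 and 0, with the lowest value for Pcdha10 (0.19).

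Set directly against primary neurons, D16 cells had less RNA of many clustered genes. Among members that pass the filter without the PN libraries, 6 of 7 alpha genes, 3 of 8 beta genes, 10 of 21 gamma genes and 3 of 10 non-clustered genes were called lower in D16 than in PN. With the members tested only because of their PN values, the counts were 11 of 12 alpha, 10 of 19 beta, 10 of 21 gamma and 3 of 11 non-clustered genes. Of all tested genes, 15% were called lower. Pcdhgc4 had the largest difference, with means of 0.559 ± 0.562 FPKM in D16 and 15 ± 6.21 in PN (SD, n = 3 each) and a log2 change of -3.34 ± 0.28 (adjusted p = 9.7e-08). Pcdh8 came next, with a log2 change of -2.88 ± 0.3 (adjusted p = 1.1e-06). Pcdha5 had 0.269, 0.44 and 0.26 FPKM in D16, against 10.7, 8.14 and 5.97 in PN, a log2 change of -2.78 ± 0.17 in a gene that was tested only because of its PN values. Pcdhac2, Pcdhb9, Pcdh20, Pcdhb7 and Pcdhga8 had log2 changes of -2.46, -2.45, -2.31, -2.2 and -2.16. Of these, Pcdhb9 and Pcdhb7 were tested only because of their PN values. The calls of Pcdha12 (-1.08), Pcdha7 (-1.05) and Pcdhb13 (-1.01) were each lost without 1 library. Pcdha7 and Pcdhb13 also were tested only because of their PN values. Pcdha12 changed by -0.92 without D16 replicate 3, -0.97 without PN replicate 1 and -0.9 without PN replicate 2, Pcdha7 by -0.87 without D16 replicate 3 and -0.92 without PN replicate 1, and Pcdhb13 by -0.88 without D16 replicate 2 and -0.99 without D16 replicate 3. The mean of D16 as a percent of that of PN ran from 3.9% for Pcdha5 to 71.9% for Pcdhac1 in the alpha cluster, and from 8.35% for Pcdhb9 to 157% for Pcdhb22 in the beta cluster.

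Some genes were not called between D16 and PN. Pcdhb18 had 2.77, 2.4 and 2.39 FPKM in D16, against 2.05, 2.91 and 2.51 in PN, and a log2 change of 0.02 ± 0.17 (adjusted p = 0.94). Pcdhb22 averaged 4.77 ± 0.947 FPKM in D16 and 3.03 ± 0.602 in PN (SD, n = 3 each), a log2 change of 0.52 ± 0.22 (adjusted p = 0.049) that did not reach the minimum change. Pcdh7 likewise was at 14.7 ± 1.37 FPKM in D16 and 9.84 ± 1.74 in PN, a log2 change of 0.55 (adjusted p = 0.028). Pcdha10 was the tested alpha gene not called, at 3.53 ± 0.314 FPKM in D16 and 6.29 ± 1.04 in PN, with a log2 change of -0.68 ± 0.16. Without D16 replicate 2, 1 member, Pcdhgc5, was called higher in D16. The plot along the clusters shows Pcdhb7 and Pcdhb9 called lower on either side of the uncalled Pcdhb8, and an unbroken run of called gamma genes from Pcdhga9 to Pcdhga12. Pcdhb7 and Pcdhb9, unlike Pcdhb8, were tested only because of their PN values, so the filter favoured their calls.

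**Figure D5:**
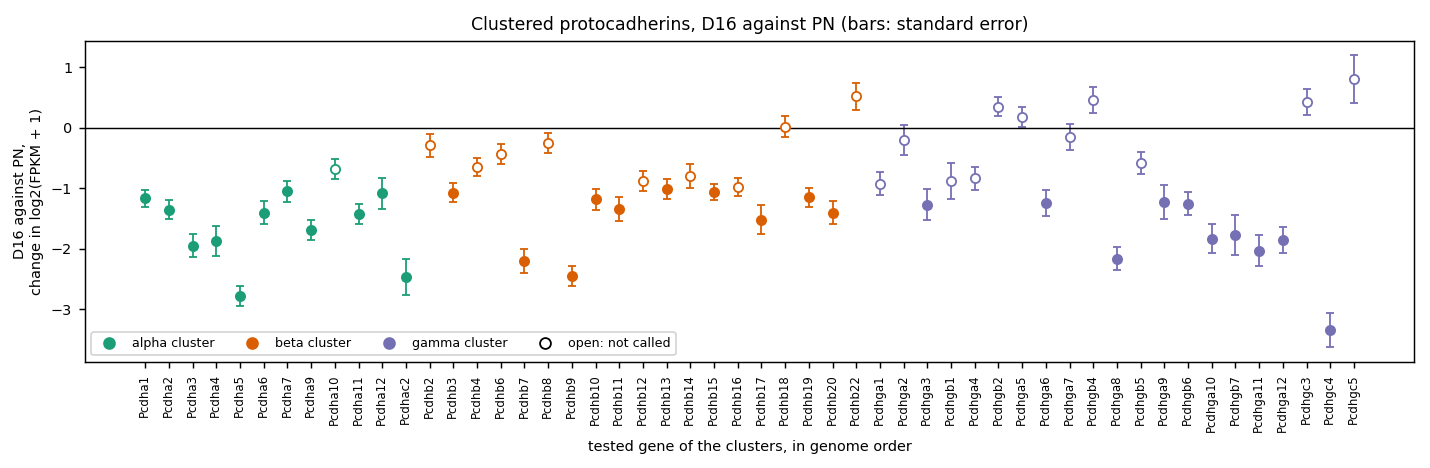
Change in log2(FPKM + 1) of D16 against PN (y axis) for the 52 tested clustered genes in genome order (x axis); bars are standard errors, filled points were called and open points were not. Most points lie below 0, from -3.34 for Pcdhgc4 to 0.81 for Pcdhgc5, whose groups overlapped. Some of the genes shown, among them Pcdhb7 and Pcdhb9, were tested only because of their PN values.

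Factors that act on the clustered promoters were taken as further lists. CTCF and the cohesin complex loop these promoters to distant enhancers. Of 11 tested genes of that list, 1 was called lower in D16 than in D0 and 0 higher, and 0 were called in PN against D0, beside 16.6% higher and 18.7% lower of all tested genes in D16 and 17.1% and 23.9% in PN. At each of D4 and D8, 2 were called lower (18.2%) and 0 higher, beside 14.2% and 16.9% lower of all tested genes. Rad21, a cohesin subunit, averaged 107 FPKM in D0, 37.7 in D4, 46.6 in D8, 57.7 in D16 and 55.2 in PN. It was called lower at D4 and D8, in every setting run. So was another cohesin subunit, Stag2, with means of 12 FPKM in D4 and 11.4 in D8. Stag2, a cohesin subunit, averaged 15.3 ± 1.19 FPKM in D16 and 31.6 ± 1.14 in D0 (SD, n = 3 each), a log2 change of -1.01 (-0.98 and uncalled without D0 replicate 1, -0.96 without D16 replicate 3, -0.98 with equal totals, -0.85 with quantile normalization), and Ctcf 16.5 ± 2.35 and 20.3 ± 3.26 (log2 change -0.28, adjusted p = 0.12). Among factors that silence these promoters, Dnmt3a, a DNA methyltransferase, averaged 19.6 ± 3.49 FPKM in PN and 7.54 ± 0.756 in D0 (SD, n = 3 each), a log2 change of 1.26. Wiz rose in PN by 1.03, a call lost without D0 replicate 2 (0.96) or PN replicate 1 (0.91). Rest, a repressor of neuronal genes, averaged 1.58 ± 0.639 in PN and 9.32 ± 2.46 in D0 (log2 change -2). In D16, Rest was at 7.94 ± 3.02 and Dnmt3a at 8.71 ± 2.32 FPKM, neither called against D0.

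Of 17 tested genes for intracellular partners and proteases of protocadherins, 2 rose and 3 fell in D16 against D0 (11.8 and 17.6%, against 16.6 and 18.7% of all tested genes), and 4 rose and 3 fell in PN against D0 (23.5 and 17.6%, against 17.1 and 23.9%). Wasf1, a WAVE complex subunit that remodels actin, rose in D16 by 1.45 ± 0.25 and in PN by 3.63 ± 0.25, and Ret, a receptor tyrosine kinase, rose in D16 by 1.85 ± 0.29. Cyfip1, of the same complex, fell by 2.56 ± 0.17 in D16 and by 1.94 ± 0.17 in PN on the log2 scale. Ncstn, a gamma-secretase subunit, fell by 1.18 in each. Among 10 tested large atypical cadherins and calsyntenins, 5 rose and 0 fell in D16 (50 and 0%), and 7 rose and 1 fell in PN (70 and 10%), each against D0. Clstn3, a synaptic calsyntenin, averaged 17.8 ± 1.18 FPKM in D16, 52.7 ± 20.8 in PN and 0.256 ± 0.111 in D0 (SD, n = 3 each), with log2 changes of 3.91 and 5.34. Clstn2 rose by 3.65 and Celsr3 by 3.43 in D16, and Fat1 fell in PN by 2.96. Among 15 tested classical cadherins, 3 rose and 4 fell in D16 (20 and 26.7%), and 4 rose and 2 fell in PN (26.7 and 13.3%), beside 16.6 and 18.7% of all tested genes in D16 and 17.1 and 23.9% in PN. Cdh2, N-cadherin, fell by 2.01 ± 0.22 in D16 and by 1.42 ± 0.22 in PN, Cdh11 fell by 2.26 in D16, and Cdh8 and Cdh10 rose by 3.62 and 2.88 in PN.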

How the data were processed

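Total RNA of 15 mouse libraries was sequenced with reads of 150 bases, per the labels. Expression was deposited by the authors as FPKM, in 1 table of 24346 gene symbols, made against mm10 (GRCm38) per the submitters' processing notes. The aligner, the quantifier and the annotation are not given in the sources used here, and neither is whether strand was used. Read counts were not used here, so no count test was possible, and only relative depth was read, from whole-number steps of low values.

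Values were analysed as log2(FPKM + 1). Group means of the 15 libraries were estimated together with limma 3.58.1 (R 4.3.3), using a variance trend and leaving 10 residual degrees of freedom, over the 13983 genes at 1 FPKM or more in at least 3 libraries, with Benjamini-Hochberg adjustment per comparison. The fit was tested on simulated data with planted changes. Group values are means ± SD over 3 libraries, and errors of log2 changes are standard errors. The members and gene lists were chosen with earlier results of these data known. All members are accounted for. Some results of the microglial and silencing lists are not reported here. Members with a group mean of at least 1 FPKM could be given by library, and of each other list up to 4 called genes with the largest change. Untested members given by library, Pcdhb21, Pcdhac1 and others, were added after their values were seen.

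Replicate numbers were taken as pairs only between D8 and D4, where same-numbered libraries correlated in their deviations at 0.329 to 0.454 and the others at -0.497 to 0.114. Alternatives were another pseudocount, other filters, equal totals, quantile normalization, fits restricted to the groups compared, the replicate number as a block, no minimum change and leaving out each library. Positions and promoters came from RefSeq on GRCm38.p6, and shared exons from GENCODE on GRCm38, where 68 of the 70 symbols matched 1 gene. All 70 matched RefSeq.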

Additional observations from a re-analysis of the deposited data

Results flagged for a closer look

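Pcdhgc4 moved in opposite directions in induced cells and primary neurons. All 3 D16 libraries (0.178 to 1.2 FPKM) lay below the astrocyte libraries (4.15 to 6.39), with a log2 change of -2.03 against D0, and all 3 PN libraries (9.6 to 21.8 FPKM) lay above them, with a log2 change of 1.31. The direct difference of D16 and PN, which tests the contrast between these changes, was -3.34 ± 0.28 (SE, adjusted p = 9.7e-08 by limma, lower in 3 of 3 D16 libraries). Of the exonic bases of Pcdhgc4, 37.9% are shared with other gamma genes.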

How the results depend on the processing

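Of 128 calls of members over the 7 comparisons, 108 were kept in every setting in which the gene was tested, 20 were lost in at least 1, and 0 reversed direction. A pseudocount of 0.1 gave 17 members higher and 8 lower at D4, 30 and 7 at D8 and 32 higher at D16, all against D0, and 5 higher in D8 against D4. Dropping the minimum change gave 16 higher and 12 lower at D4, 23 and 9 at D8, 33 higher at D16, 6 lower in PN, 2 higher in D16 against PN and 5 higher in D8 against D4. A filter at 5 FPKM left 32 members and 6 higher at D8, 7 at D16, 22 in PN and 18 lower in D16 against PN. Quantile normalization gave 1 higher in D8 against D4. Leaving out 1 library gave 1 to 5 higher and 3 to 7 lower at D4, 9 to 14 and 3 to 7 at D8, 15 to 17 and 3 to 7 at D16, 36 to 52 and 2 to 3 in PN, 0 to 1 and 23 to 38 in D16 against PN, 0 to 1 higher in D8 against D4 and 0 in D16 against D8. The low ends of 36 and 23 came without PN replicate 1, where 52 members were tested in place of 63. Most of the calls missing there were of members no longer tested. With the replicate block the counts of members higher and lower were 4 and 5 at D4, 12 and 4 at D8, 16 and 4 at D16, 47 and 2 in PN, 0 and 34 in D16 against PN, and 0 and 0 in D8 against D4 and in D16 against D8, so the block changed no count. Outside D8 against D4, same-number pairs correlated at -0.135 to 0.275. Equal totals or quantile normalization moved the median of all genes in PN against D0 from -0.12 to -0.01 or 0. Where the cause of a difference is not set by the filter or the threshold itself, the cause was not tested. Low FPKM values and unknown depth limit most alpha and beta genes at D0.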
